A study of Homo sapiens with 9 samples.

Results

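The BH3-only genes are the branch of the BCL2 family whose protein products share a single short domain, BH3, and start the mitochondrial pathway of apoptosis. Their 8 classical members, BBC3 (which encodes PUMA), PMAIP1 (NOXA), BCL2L11 (BIM), BID, BAD, BIK, BMF and HRK, were taken by name, at a time when earlier results of these data were known, and all 8 were present among the 26475 gene symbols of the count table. A BH3-only protein inserts its BH3 helix into the groove of an anti-apoptotic relative such as BCL-2, BCL-XL or MCL-1, and some members also bind BAX and BAK directly; freed BAX and BAK then permeabilize the outer mitochondrial membrane and release cytochrome c. Each member is known to answer to its own kind of stress and much of the control is transcriptional. In melanoma cells that carry a BRAF mutation, signaling through ERK is known to hold BIM and BMF in check.

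The RNA came from A375, an established human melanoma cell line with a BRAF mutation, which was the only line in the experiment. Cells were exposed for 24 h to the vehicle DMSO, to 5 µM TP-472 or to 10 µM TP-472, and each group had 3 libraries, described as biological replicates. TP-472 blocks the acetyl-lysine pockets (bromodomains) of BRD9 and BRD7, which are subunits of SWI/SNF chromatin remodeling complexes. The libraries held 42483082 to 51298121 expected counts (reads assigned to a gene by a statistical estimate), of which 8.20% to 19.9% fell on genes of ribosomal RNA, and levels are given in CPM (counts per 1000000, over the scaled library size).

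The library of 10 µM replicate 1 stood apart. Its counts differed from those of replicates 2 and 3 at 10 µM with a chi-square per gene of 215 and 346, against 5.67 to 63.8 for the other pairs of libraries within a group. The chi-square included the ribosomal RNA genes and scaled counts by the library total only. Those genes took 8.20%, 14.3% and 19.9% of counts in 10 µM replicates 1, 2 and 3, and their part in the chi-square was not tested. In 10 µM replicate 1, GC content and length of the transcripts accounted for 8.63% of the variance of its deviation across genes. That share was 4% and 4.04% for replicates 2 and 3 at 10 µM and at most 0.539% for DMSO and 5 µM libraries. Deviations were taken from the mean of a library's own group, so the shares of replicates 2 and 3 are not independent of replicate 1. Results are therefore given with all 9 libraries and again without 10 µM replicate 1, as the fit of 8 libraries. In that fit the 10 µM group holds only 2 libraries, on which its adjusted p-values at 10 µM rest. Of the melanocyte lineage markers, SOX10 averaged 391 to 417 CPM and MITF 29.1 to 31.9 CPM in the 3 groups, while the pigmentation genes TYR and DCT held 0 counts in every library except for 1 count of DCT. The 9 lineage markers used here together summed to 400 to 468 CPM per library, of which SOX10 alone gave 363 to 426 CPM. PMEL, MLANA and GPR143 averaged at most 2.04, 0.173 and 0.545 CPM in any group. The keratinocyte marker KRT14 averaged 6.92 to 7.25 CPM. Of the 9 lineage markers 1, S100A1, was downregulated at 10 µM (log2 fold change -1.56). In the fit of 8 libraries SOX10 was downregulated as well (log2 fold change -0.13, adjusted p = 0.0149 at 10 µM), so that 2 lineage markers were called at 10 µM and 2 between the doses. The 2 leukocyte markers summed to at most 0.537 CPM, with CD3E at 0 throughout, the 4 keratinocyte and epithelial markers to 6.52 to 10.9 CPM and the 3 endothelial markers to 1.84 to 3.70 CPM. Of these 3 groups of markers the fit of 8 libraries called PECAM1, an endothelial gene, downward at 5 µM (log2 fold change -1.01, adjusted p = 0.0342). The part of these markers in the results was not tested.

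Differences were tested for all 16402 genes that passed a filter on low counts, with edgeR's quasi-likelihood test in 1 fit of the 3 groups, and a gene was called at a Benjamini-Hochberg adjusted p under 0.05. At 5 µM against DMSO 1 of the 8 genes was called, BBC3, where 10.2% of all genes tested were called and 4.40% were called upward. At 10 µM against DMSO 3 of the 8 were called, BBC3 and PMAIP1 upward and BMF downward, where 34.3% of all genes were called, 16.4% upward and 18.0% downward. At 10 µM against 5 µM 2 of the 8 were called, BBC3 and PMAIP1, both upward, where 8.42% of all genes were called and 2.87% were called upward. The count at 10 µM against DMSO was thus near the background of that comparison. In RNA from a whole culture, a change in every cell and a change in the number of cells that express a gene cannot be told apart. The libraries of the 2 groups compared did not overlap for 7, 3 and 2 of the 8 genes in the 3 comparisons, and for 48.8%, 49.4% and 28.3% of all genes. The median log2 fold change of the 8 genes was -0.10, -0.03 and 0.15 in the 3 comparisons, and that of all genes tested was 0.005, 0.011 and 0.001. In the fit of 8 libraries the counts were 4, 6 and 2 of the 8, against 34.2%, 48.8% and 24.2% of all genes. The comparison of 5 µM with DMSO holds no 10 µM library, but its spread was estimated over all 3 groups. Without 10 µM replicate 1 the log2 fold changes of BID, BAD and BMF at 5 µM were unchanged. Their SE went from 0.14, 0.19 and 0.26 to 0.07, 0.07 and 0.16. An edgeR fit of only DMSO and 5 µM called BID (adjusted p = 0.00139), BAD (0.0205), BMF (0.000201) and PMAIP1 (0.0456) beside BBC3, with 6331 of 15849 genes called.

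**Figure D1:**
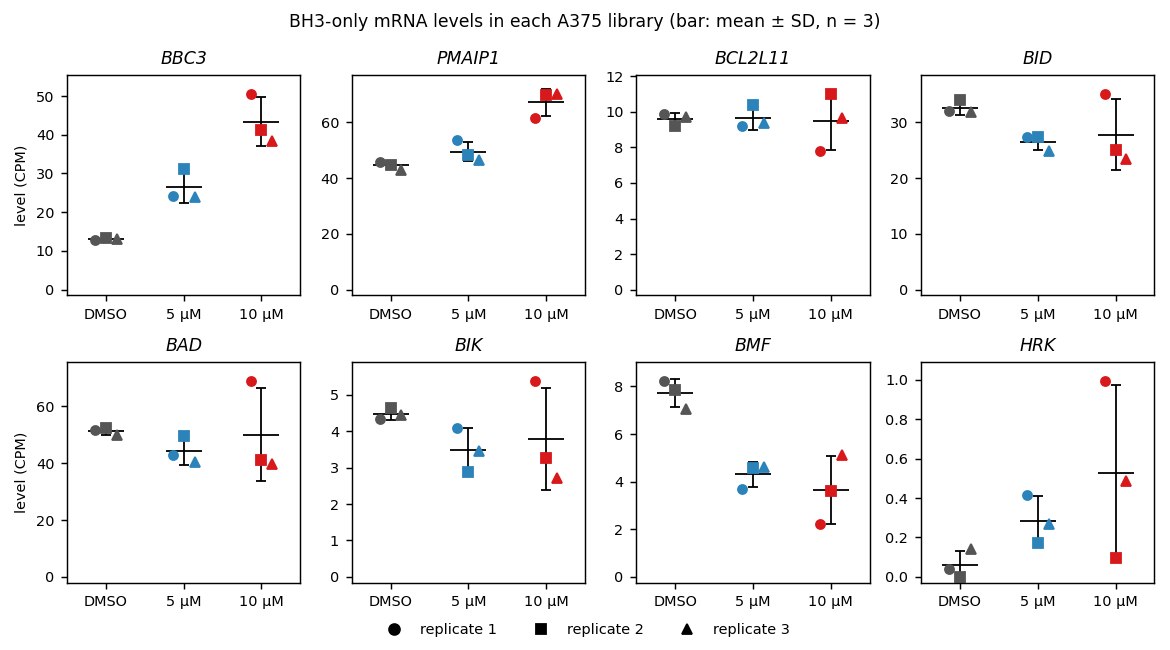
Level of each BH3-only gene in CPM (vertical axis, its own scale in each panel) in the 3 libraries of each group, with the mean and SD (n = 3) as bars. BBC3 climbs from 12.8 to 13.3 CPM in DMSO up to between 38.4 and 50.5 CPM at 10 µM, BMF is lower in all 6 treated libraries, and 10 µM replicate 1 (red circle) is the highest point of its group for BBC3, BID, BAD, BIK and HRK.

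Because BBC3, PMAIP1 and BMF were the 3 members called, the sequences ahead of their start sites are printed first. They are from the RefSeq promoter table on GRCh38.p14, on the strand of the gene, and cover the part of the 250 bases before the RefSeq start that also lies outside the GENCODE gene. They span chr19:47232767-47232917 for BBC3 (minus strand), chr18:59899746-59899947 for PMAIP1 (plus strand) and chr15:40108893-40109129 for BMF (minus strand). Capitals mark TGANTCA, the AP-1 motif bound by JUN and ATF3, and CACGTG, the E-box, in BBC3, and GGGCGG or its reverse complement, the GC box bound by SP1, in the other two.
BBC3: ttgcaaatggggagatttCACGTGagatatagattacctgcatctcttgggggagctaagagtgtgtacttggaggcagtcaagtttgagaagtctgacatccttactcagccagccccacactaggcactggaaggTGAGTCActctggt
PMAIP1: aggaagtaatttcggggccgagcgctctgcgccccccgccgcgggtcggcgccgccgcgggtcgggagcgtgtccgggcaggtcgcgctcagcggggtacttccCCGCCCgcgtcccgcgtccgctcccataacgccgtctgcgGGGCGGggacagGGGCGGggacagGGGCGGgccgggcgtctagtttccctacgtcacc
BMF: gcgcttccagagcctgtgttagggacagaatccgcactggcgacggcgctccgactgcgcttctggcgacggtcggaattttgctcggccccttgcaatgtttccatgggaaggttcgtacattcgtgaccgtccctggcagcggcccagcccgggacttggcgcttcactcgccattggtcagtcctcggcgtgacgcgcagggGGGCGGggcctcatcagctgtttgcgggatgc
The table held promoters for 7 of the 8 members, BIK not among them. In windows of 250 bases read on both strands, BBC3 held 1 TGANTCA and 1 CACGTG, which 6.57% and 6.34% of 35116 promoters held. PMAIP1 held 4 GC boxes and BMF 1, a motif present in 42.6% of promoters. The FOXO motif GTAAACA was found in BCL2L11 alone of the 7 (2.98% of promoters), and TGACGTCA (1.65%) and TGATGNAAT (0.888%) matched none of the 7 windows. These matches describe letters in a short window only.

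BBC3 encodes PUMA, which binds all major anti-apoptotic BCL2 proteins. The gene lies on chr19 (47220822 to 47232766, minus strand, GRCh38). Its level was 12.8, 13.3 and 13 CPM in the DMSO libraries, then 24.3, 31.1 and 24.0 at 5 µM and lastly 50.5, 41.2 and 38.4 at 10 µM. The 3 groups did not overlap, and every library at the higher dose lay above every library at the lower one. The mean was 13 ± 0.217 CPM (SD, n = 3) in DMSO and climbed to 26.5 ± 4.01 with the lower and 43.4 ± 6.35 CPM with the higher dose. BBC3 was upregulated 2.03-fold at 5 µM (log2 fold change 1.02, SE 0.13, edgeR adjusted p = 0.00123) and 3.33-fold at 10 µM (1.73, SE 0.13, adjusted p = 1.08e-05). It was also 1.64-fold higher at 10 µM than at 5 µM (log2 fold change 0.71, SE 0.13, adjusted p = 0.00979). The log2 fold change of BBC3 at 10 µM exceeded that of 97.2% of the genes tested. With 10 µM replicate 1 left out, the change at 10 µM was 3.05-fold (log2 fold change 1.61, adjusted p = 2.97e-09). The step between the doses missed the threshold without 5 µM replicate 1 (log2 fold change 0.65, adjusted p = 0.0545) and without 5 µM replicate 3 (0.64, adjusted p = 0.0555), at nearly the same size.

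PMAIP1 encodes NOXA, which binds mainly MCL-1 and A1 and is known as a target of the ATF4 stress pathway. The gene lies on chr18 (59899948 to 59904306, plus strand). It measured 45.7, 44.7 and 43.0 CPM in DMSO, then 53.5, 48.2 and 46.6 at 5 µM and lastly 61.4, 69.8 and 70.1 at 10 µM. All 10 µM libraries lay above all 5 µM libraries, which in turn lay above all DMSO libraries by a narrow margin. PMAIP1 was upregulated 1.51-fold at 10 µM against DMSO (log2 fold change 0.59, SE 0.09, adjusted p = 0.00057) and 1.36-fold at 10 µM against 5 µM (0.44, SE 0.09, adjusted p = 0.0128). At 5 µM the log2 fold change was 0.15 (SE 0.09) and did not pass (adjusted p = 0.317). Unlike the 5 members that peaked in 10 µM replicate 1, PMAIP1 was lowest of its group in that library, and without it the log2 fold change at 10 µM was 0.65 (adjusted p = 3.95e-07). Between the doses its call, though hardly its size, was lost without 5 µM replicate 2 (log2 fold change 0.42, adjusted p = 0.0698) or 5 µM replicate 3 (0.40, adjusted p = 0.074).

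BMF encodes a protein that is held on the cytoskeleton by dynein light chain 2 and that binds BCL-2 relatives when released. The gene lies on chr15 (40087890 to 40108892, minus strand), and 8.46% of its exonic bases lie opposite exons of BMF-AS1. The libraries kept the strand, but the sources used here do not say if strand entered the counting, so reads of such pairs may not have been told apart. BMF measured 8.21, 7.86 and 7.07 CPM in DMSO, then 3.70, 4.59 and 4.60 at 5 µM and lastly 2.23, 3.61 and 5.11 at 10 µM. All 6 treated libraries lay below all DMSO libraries, and the 2 doses overlapped. At 10 µM BMF was downregulated to 0.474 times the DMSO level (log2 fold change -1.08, SE 0.26, adjusted p = 0.00977). At 5 µM the log2 fold change was -0.84 (SE 0.26, adjusted p = 0.068), which missed the threshold with all 9 libraries and passed it without 10 µM replicate 1 (adjusted p = 0.000731). Without that library the 2 doses gave nearly the same value, -0.84 and -0.83, and their difference was 0.02 (SE 0.18).

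BCL2L11 encodes BIM, which binds every pro-survival relative and can engage BAX directly. It lies on chr2 (111119378 to 111168447, plus strand), with 10.9% of its exonic bases opposite MIR4435-2HG. Its level was 9.86, 9.18 and 9.72 CPM in DMSO, then 9.18, 10.4 and 9.36 at 5 µM and lastly 7.79, 11.0 and 9.68 at 10 µM. The 3 groups overlapped throughout. The log2 fold change was 0.01 (SE 0.14, adjusted p = 0.978) at 5 µM and -0.02 (SE 0.14, adjusted p = 0.943) at 10 µM, the smallest of the 8 members in both comparisons. The fit of 8 libraries gave 0.10 at 10 µM (SE 0.11, adjusted p = 0.489).

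BID, BAD and BIK form a group in which the call depended on 10 µM replicate 1. BID links death receptors to mitochondria once caspase-8 has cleaved it. It lies on chr22 (17734138 to 17774770, minus strand) and measured 32.0, 34.0 and 31.9 CPM in DMSO, then 27.4, 27.4 and 24.9 at 5 µM and lastly 35.1, 25 and 23.4 at 10 µM. At 10 µM, replicate 1 lay above every DMSO library and replicates 2 and 3 lay below every one. The log2 fold change of BID was -0.30 (SE 0.14, adjusted p = 0.228) at 5 µM and -0.23 (SE 0.14, adjusted p = 0.238) at 10 µM. Without 10 µM replicate 1 both were called, at -0.30 (SE 0.07, adjusted p = 0.00239) and -0.43 (SE 0.07, adjusted p = 0.00017).

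BAD neutralizes BCL-2 and BCL-XL unless survival kinases phosphorylate it and 14-3-3 proteins retain it. It lies on chr11 (64269830 to 64284704, minus strand), with 23.7% of its exonic bases opposite GPR137, the largest such share among the 8. BAD measured 51.8, 52.4 and 49.8 CPM in DMSO, then 43.0, 49.6 and 40.3 at 5 µM and lastly 68.8, 41.3 and 39.8 at 10 µM. Its 10 µM libraries split in the same way as those of BID, with replicate 1 above the DMSO range and the other two below it. The log2 fold change of BAD was -0.21 (SE 0.19, adjusted p = 0.565) at 5 µM and -0.04 (SE 0.19, adjusted p = 0.9) at 10 µM. In the fit of 8 libraries they were -0.21 (SE 0.07, adjusted p = 0.0238) and -0.34 (SE 0.08, adjusted p = 0.00155), both called.

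BIK encodes a BH3-only protein of the endoplasmic reticulum. It lies on chr22 (43110748 to 43129712, plus strand) and measured 4.33, 4.63 and 4.44 CPM in DMSO, then 4.10, 2.89 and 3.47 at 5 µM and lastly 5.37, 3.27 and 2.73 at 10 µM. Again 10 µM replicate 1 was above DMSO and the other two were below. The log2 fold change of BIK was -0.36 (SE 0.25, adjusted p = 0.449) at 5 µM and -0.24 (SE 0.25, adjusted p = 0.509) at 10 µM, and without 10 µM replicate 1 the value at 10 µM was -0.58 (SE 0.21, adjusted p = 0.0306). At 5 µM it stayed short of the threshold in that fit (adjusted p = 0.148). The mean transcript GC content of the members ran from 41.4% for PMAIP1 to 65.1% for BAD, with 56.0% for BIK and 52.6% for BID. BMF, at 59.8%, was lowest of its group in 10 µM replicate 1, where BAD and BIK were highest. With the trend of GC content and length removed from all libraries, BID, BAD and BIK at 10 µM had log2 fold changes of -0.31, -0.05 and -0.35, against -0.23, -0.04 and -0.24 with it, and none was called either way. These fold changes average over the 3 libraries of a group, so they cannot show the trend within 1 library. A term of GC content and length was fitted to each library, in log2 against the mean of all libraries. In 10 µM replicates 1, 2 and 3 it was 0.279, -0.141 and -0.152 for BAD and 0.259, -0.045 and -0.0623 for BIK. For BID it was 0.0661, 0.0418 and 0.0315, and for BMF 0.294, -0.0955 and -0.119. The part of GC content and length in the values of 10 µM replicate 1 was not tested.

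HRK, a member best known from neurons, was close to the limit of detection. It lies on chr12 (116856144 to 116881441, minus strand) and held 2, 0 and 6 counts in the DMSO libraries, 19, 9 and 13 counts at 5 µM and 48, 5 and 24 counts at 10 µM. HRK passed the filter on low counts only through the treated libraries. Its 5 µM libraries all lay above DMSO, whereas 10 µM replicate 2 fell within the DMSO range of counts. Summed over libraries, the 8 counts in DMSO rested beside 41 at 5 µM and 77 at 10 µM, ratios of 4.93 (95% exact interval 2.28 to 12.2) and 9.05 (4.37 to 21.7) per scaled library size that cover counting error only. HRK was not called at 5 µM (log2 fold change 2.23, SE 1.12, adjusted p = 0.262) or at 10 µM (3.10, SE 1.11, adjusted p = 0.0552). For HRK the fit of 8 libraries gave a log2 fold change at 10 µM of 2.26 (SE 1.15, adjusted p = 0.121).

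**Figure D2:**
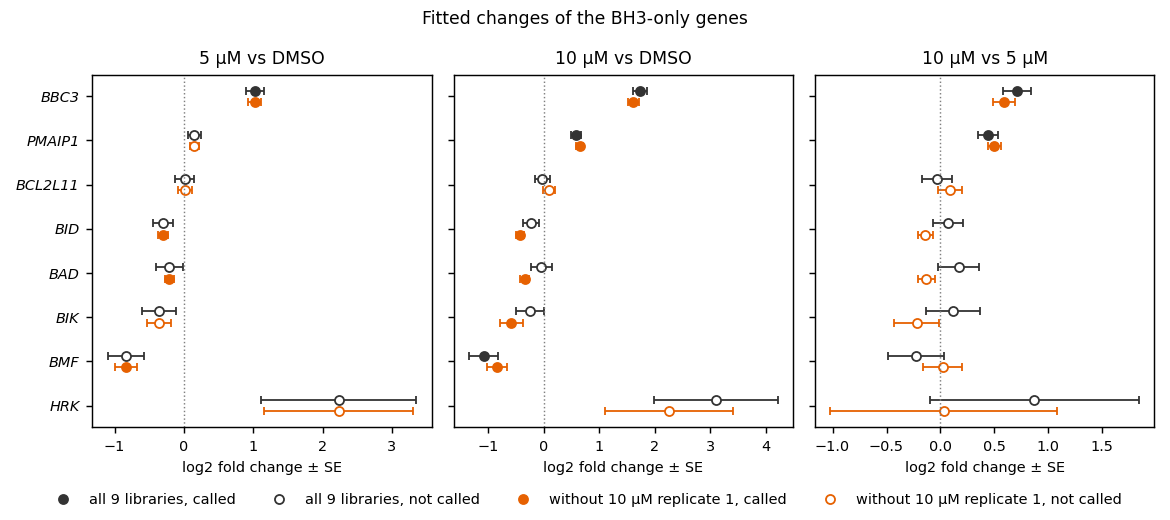
Log2 fold change with its SE (horizontal axis) of the 8 BH3-only genes in the 3 comparisons, fitted to all 9 libraries (black) or without 10 µM replicate 1 (orange), with filled points for called genes. BBC3 and PMAIP1 lie to the right in both fits at 10 µM, BMF lies to the left, and BID, BAD and BIK at 10 µM become filled only in the fit without that library.

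Levels of different members can be compared only per transcript length. With the median length of the coding transcripts in GENCODE release 29, levels were computed as transcripts per 1000000 (TPM), and BAD led in DMSO at 131 ± 2.97 TPM (SD, n = 3). PMAIP1 followed at 40.9 ± 0.949, BID at 24.3 ± 0.956, BMF at 17.0 ± 1.16, BBC3 at 11.5 ± 0.264, BCL2L11 at 9.31 ± 0.326, BIK at 6.93 ± 0.275 and HRK at 0.0282 ± 0.0342 TPM. No neighbours in this order overlapped between their DMSO libraries. At 5 µM BBC3 stood at 24 ± 3.7 TPM, behind BAD and PMAIP1 and ahead of BID at 20.4 ± 1.1 with no overlap, while BMF at 9.78 ± 1.2 and BCL2L11 at 9.68 ± 0.698 overlapped. At 10 µM BBC3 reached 38.3 ± 2.03 TPM, between PMAIP1 at 63.0 ± 10.5 and BID at 20.7 ± 2.54, and BCL2L11, BMF and BIK overlapped with each other. The places of BMF, BIK and BBC3 in DMSO depend on the length used. With the longest coding transcript BMF was at 4.88 ± 0.320 TPM in DMSO, below BIK at 13.9 ± 0.590, and BBC3 moved from place 5 to 4. BAD, PMAIP1 and BID kept the top 3 places there. With that length BCL2L11, BMF and BIK did not overlap at 10 µM, nor did BMF and BCL2L11 at 5 µM.

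**Figure D3:**
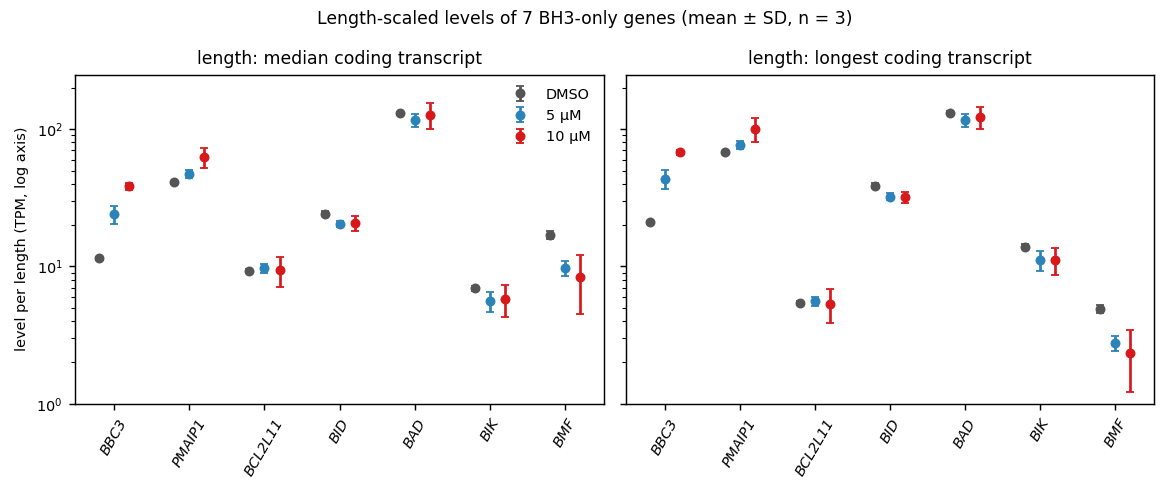
Level per transcript length of 7 BH3-only genes (vertical axis, TPM, log scale) in DMSO, 5 µM and 10 µM as mean ± SD (n = 3), with the median (left) or longest (right) coding transcript as the length. HRK, the lowest in every group, is not drawn; BBC3 moves from below BID in DMSO to above it in both treated groups, for either length.

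Together the 8 genes made up 159 to 166 CPM in the DMSO libraries, and at 5 µM and 10 µM they made up 154 to 174 and 190 to 232 CPM. These sums, which count reads without regard to transcript length, were not tested.

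The genes whose log2 levels across the 9 libraries were most like those of each called member were listed by Pearson's r among 13679 genes of at least 1 CPM on average. For BBC3 they were GPC1 (r = 0.995), KCTD5 (0.994) and CLU (0.993). For PMAIP1 they were RSRC2 (0.987), NEAT1 (0.986) and HDAC9 (0.984), and for BMF they were USP1 (0.986), ELOVL5 (0.981) and SEPT10 (0.980). The 9 points fall into 3 treatment groups and share libraries and depth, so these values are descriptions.

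Among the anti-apoptotic proteins that BH3-only proteins occupy, 5 of 6 genes were tested. At 10 µM 1 was upregulated and 1 downregulated. For this and the following lists, the shares of all genes called were 10.2% at 5 µM, 34.3% at 10 µM and 8.42% between the doses with all 9 libraries, and 34.2%, 48.8% and 24.2% with 8. BCL2, the founding member, was downregulated (log2 fold change -0.65, SE 0.18, adjusted p = 0.0181), and BCL2L1, which encodes BCL-XL, was upregulated (0.38, SE 0.11, adjusted p = 0.0263). Of 19 alternative fits, 4 lost the call of BCL2 (adjusted p up to 0.0847), among them those without DMSO replicate 1, DMSO replicate 3 or 10 µM replicate 2, and 4 lost that of BCL2L1 (up to 0.0921), among them those without any 1 of the DMSO libraries. At 5 µM and between the doses edgeR called 0 of the 5, with 0 at an unadjusted p under 0.05 and 0 called by DESeq2. The fit of 8 libraries called 2 at 5 µM, 3 at 10 µM and 1 between the doses, and MCL1, the main partner of NOXA, was then among those upregulated at 10 µM (0.25, adjusted p = 9.31e-06).

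Of the 3 effector genes, BAX, BAK1 and BOK, 1 was upregulated at 5 µM and 2 at 10 µM. BAX was upregulated 2.17-fold at 5 µM (log2 fold change 1.12, SE 0.15, adjusted p = 0.00129) and 2.56-fold at 10 µM (1.35, SE 0.15, adjusted p = 9.67e-05), and BAK1 1.71-fold at 10 µM (0.78, SE 0.13, adjusted p = 0.00158). Between the doses 0 of the 3 were called, with 1 at an unadjusted p under 0.05 and 0 called by DESeq2. All 3 were called at both doses in the fit of 8 libraries, BAX and BAK1 upward and BOK downward.

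A further 7 tested genes encode proteins with a BH3-like segment, and 1 rose and 2 fell at each dose. BNIP3 and BNIP3L, mitophagy receptors known to be induced by hypoxia, fell with log2 fold changes of -0.59 and -0.59 at 5 µM and -1.03 and -0.92 at 10 µM, and both were lower at 10 µM than at 5 µM. The difference between the doses lost its call in 3 of 19 alternative fits for BNIP3 (adjusted p up to 0.0826), among them those without 5 µM replicate 1 or 3, and in 8 for BNIP3L (up to 0.169), among them those without any 1 DMSO or 5 µM library or without 10 µM replicate 2. BECN1, an autophagy gene, rose by 0.28 and 0.30 on the log2 scale. Its call at 5 µM was lost in 8 of 19 alternative fits (adjusted p up to 0.156), among them each fit without 1 DMSO or 5 µM library, and at 10 µM in 2 (up to 0.0589), 1 of them without DMSO replicate 2. Leaving out 10 µM replicate 1 gave 2 up and 2 down at 5 µM and 2 up and 3 down at 10 µM.

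Of 12 tested genes for transcription factors that are known to regulate BH3-only genes, 2 rose at 5 µM, 5 rose and 3 fell at 10 µM, and 6 rose between the doses. ATF3, a stress-induced factor, rose 7.38-fold at 5 µM and 32.1-fold at 10 µM (log2 fold change 5.00, SE 0.14, adjusted p = 3.94e-08). DDIT3, which encodes CHOP, rose 1.67-fold and 7.88-fold (2.98, SE 0.19, adjusted p = 3.43e-06), and its call at 5 µM was lost in 7 of 19 alternative fits (adjusted p up to 0.135), among them each fit without 1 DMSO or 5 µM library. JUN rose 2.49-fold and SNAI2, known as a repressor of BBC3, 3.94-fold at 10 µM. SNAI2 was near the floor, with 24, 20 and 17 counts in the DMSO libraries and means of 0.432 CPM in DMSO and 1.71 CPM at 10 µM. Between the doses SNAI2 lost its call in 8 of 19 alternative fits (adjusted p up to 0.111). TP73 and E2F1, both known activators of BH3-only genes, fell at 10 µM with log2 fold changes of -1.04 and -0.79. FOXO3, ATF4 and MYC were named after their values were seen. FOXO3 fell at 10 µM with -0.65, and ATF4 rose at 10 µM with 0.48 (adjusted p = 0.00865). MYC was called only between the doses, upward (0.54, adjusted p = 0.0388), and lost that call in 9 of 19 alternative fits (adjusted p up to 0.141). The call of TP73 was lost without DMSO replicate 2 (adjusted p = 0.0598). The fit of 8 libraries called 3 up and 4 down at 5 µM and 7 up and 3 down at 10 µM.

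Among 17 genes for proteins that bind, cleave or modify BH3-only proteins, 2 fell at 5 µM and 5 fell at 10 µM. PIM1 and AKT1, kinases that phosphorylate BAD, had log2 fold changes at 10 µM of -1.15 (SE 0.13, adjusted p = 0.000138) and -0.44 (SE 0.10, adjusted p = 0.00666). MAPK3, which encodes ERK1, fell by 0.53 at 5 µM and by 0.85 at 10 µM on the log2 scale. RPS6KA1, a kinase downstream of ERK, and YWHAQ, a 14-3-3 gene, fell by 0.29 and by 0.24 at 10 µM. MAPK3 at 5 µM lost its call in 7 of 19 alternative fits (adjusted p up to 0.124), among them each fit without 1 DMSO or 5 µM library, and YWHAQ in 6 (up to 0.0731), among them those without any 1 DMSO library or without 10 µM replicate 3. Between the doses 0 of the 17 were called by edgeR, with 2 at an unadjusted p under 0.05 and 1 called by DESeq2. With 10 µM replicate 1 left out, 3 rose and 5 fell at 5 µM and 5 rose and 6 fell at 10 µM.

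Downstream of the mitochondrion 9 genes were tested, of which 1 rose at 5 µM and 3 rose at 10 µM. Of all genes tested, 10.2% and 34.3% were called in either direction, and 4.40% and 16.4% upward. CYCS, which encodes cytochrome c, rose 1.33-fold at 5 µM (log2 fold change 0.41, SE 0.09, adjusted p = 0.0219) and 1.66-fold at 10 µM (0.73, SE 0.09, adjusted p = 0.000298). DIABLO and HTRA2, antagonists of the inhibitors of apoptosis, rose 1.32-fold and 1.30-fold at 10 µM. Leaving out any 1 DMSO library ended the calls of DIABLO and HTRA2 (adjusted p up to 0.107 and 0.0917), as did the fit of only the 2 groups, and CYCS at 5 µM lost its call without any 1 DMSO library or without 5 µM replicate 1 or 3 (up to 0.112). Between the doses 0 of the 9 were called, with 2 at an unadjusted p under 0.05 and 2 called by DESeq2. Leaving out 10 µM replicate 1 gave 2 up and 1 down at 5 µM and 5 up and 1 down at 10 µM.

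**Figure D4:**
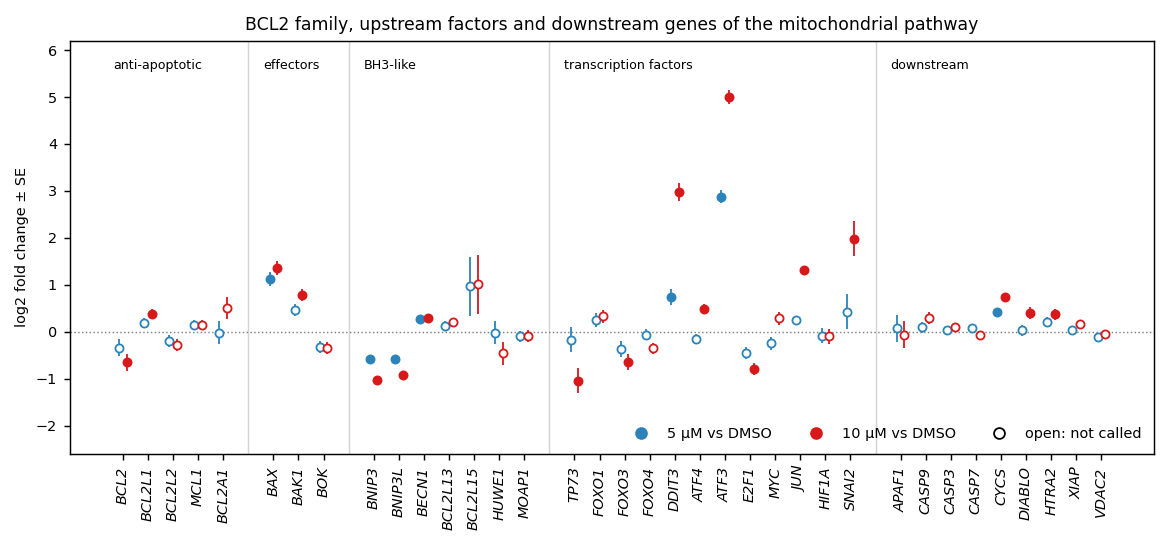
Log2 fold change with its SE (vertical axis) of the tested genes around the BH3-only proteins at 5 µM (blue) and 10 µM (red) against DMSO, with filled points for called genes. ATF3 at 5.00 and DDIT3 at 2.98 are the highest points at 10 µM, and BAX lies above 1 at both doses.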

How the data were processed

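mRNA of A375 cells was profiled in 3 libraries for each of the 3 groups. The authors deposited expected counts per gene symbol, not scaled to library size. The submitters' processing notes name RSEM 1.2.15, Bowtie2 2.1.0 and hg38, and the sources used here do not give the annotation. The study's methods describe oligo-dT selection and the design text ribosomal RNA depletion, and which was used could not be settled. Between 10.6% and 13.8% of values per library were not whole numbers, and all were rounded. Counts were scaled by TMM, filtered with filterByExpr and tested with edgeR 4.0.16 (quasi-likelihood, Benjamini-Hochberg adjustment over 16402 genes) in R 4.3.3. The standard error is the size of the log2 fold change over the square root of F. DESeq2 1.42.0 and limma 3.58.1 served as alternatives, with other scalings and filters, a fold limit of 1.5, a replicate block, fits of 2 groups and each library left out. The length and GC trend (splines of 4 degrees of freedom, 15308 genes) and the omission of ribosomal RNA genes were added after seeing the data. The fit was tested on simulated data. Likeness used log2(CPM + 1).

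The members and lists were chosen with earlier results of these data known. Named genes are all 8 members and, of each list, up to 6 genes called in at least 1 comparison, largest change first; 3 genes of the lists are not reported here and were left out of list counts and sums. GENCODE release 29 (GRCh38) supplied coordinates and transcript lengths and matched 23899 of the 26475 symbols. Promoter windows are from RefSeq.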

Additional observations from a re-analysis of the deposited data

How the results depend on the processing

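Of the 8 BH3-only genes, 1 was called at 5 µM, 3 at 10 µM and 2 between the doses. At 5 µM the count was 2 with DESeq2 and 2 with limma-voom, both adding BMF, and 5 in a fit of only the 2 groups compared, where all genes called rose from 1678 of 16402 to 2681 with DESeq2 and to 6331 of 15849 in the fit of 2 groups (1649 of 16402 with limma-voom); leaving out 1 library gave 1 to 4, with 4 without 10 µM replicate 1 and 2 without 10 µM replicate 3. At 10 µM leaving out 1 library gave 3 to 6, with 6 without 10 µM replicate 1. Between the doses it was 1 with a fold of at least 1.5, 0 in edgeR's fit of only the 2 groups (2 at an unadjusted p under 0.05, 2 with DESeq2 on all groups) and 0 to 2 with 1 library left out, with 1 without 5 µM replicate 1 or replicate 2 and 0 without replicate 3. HRK was called at 10 µM by DESeq2 (adjusted p = 0.0133), with the length and GC trend removed (0.0463) and without 10 µM replicate 2 (0.0275), and in the fits of only the 2 groups at 5 µM and at 10 µM it was below the filter; with 1 library left out its log2 fold change ran from 1.64 to 3.66 at 5 µM and from 2.26 to 4.53 at 10 µM. BBC3 at both doses, and PMAIP1 and BMF at 10 µM, were called in all 19 alternative fits. Directions turned only for members that were not called: BCL2L11 at 5 µM was -0.02 with the length and GC trend removed, at 10 µM 0.02 with upper-quartile factors and 0.00 with at least 1 CPM in 3 libraries, and between the doses 0.00 with upper-quartile factors, while BAD at 10 µM was 0.01 with upper-quartile factors. With 1 library left out, the log2 fold change ran from -0.05 to 0.04 (5 µM), -0.14 to 0.10 (10 µM) and -0.15 to 0.09 (between doses) for BCL2L11, from -0.34 to 0.10 (10 µM) and -0.13 to 0.31 (between doses) for BAD, and between the doses from -0.14 to 0.18 for BID, -0.22 to 0.31 for BIK and -0.55 to 0.02 for BMF. The cause of these changes was not tested. Same-numbered libraries correlated at -0.050 to 0.032 in their deviations, and libraries of different numbers at -0.033 to 0.047. No shared effect of the replicate number was thus seen, though these values cannot tell if samples were prepared in pairs. A replicate block left the counts at 1, 3 and 2. Depth limits HRK, whose DMSO libraries held at most 6 counts.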
